A study of Mus musculus with 12 samples.

Results

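The 42 collagen genes described here are those whose symbol has the form Col, a type number, the letter a and a chain number. They were read in bulk RNA sequencing of mouse pituitary glands, in a table of 18497 named genes. The pattern matched 44 rows, and 2 of them are not analysed here. The members comprise 11 fibrillar chains, 6 chains of type IV collagen, called basement membrane here, and 25 other chains. The let-7f mimic group held 6 glands and the vehicle group 6, 1 library per gland, all from adult males labelled WT and F1 C57BL/6Jx129S1/SvlmJ. The mimic group had received a synthetic let-7f-5p microRNA by microinjection at the zygote stage, at a dose named stress-relevant by the labels. The vehicle group had received nuclease-free water in the same way. All embryos had been cultured in KSOM medium and carried by CD1 recipient dams. Litters and dams are not given in the labels, so p-values measure the spread between these glands and take them as independent.

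Collagens are proteins of 3 chains wound into a triple helix. Fibrillar collagens form the tensile fibres laid down by fibroblasts, type IV collagen forms the network of basement membranes around vessels and cell nests, and the other classes decorate fibrils, link layers, form fine filaments or span the cell membrane. The pituitary joins an anterior lobe of hormone cells, an intermediate lobe of melanotrophs, and a posterior lobe of axon endings and pituicytes, a kind of glia. Pax7 is a transcription factor that specifies melanotrophs, so that its RNA follows the intermediate lobe in a whole gland. In bulk RNA, fewer cells of a type and less RNA per cell cannot be told apart.

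Expression is given in the authors' normalised read counts, and levels of different genes are compared only as normalised counts per kilobase of the longest annotated transcript. Reads recovered from the table came to 26378308 to 37061136 per library. The hormone genes Gh and Prl, which define the anterior lobe, were high in all 12 libraries, with Prl at 323446 to 508589 normalised counts in mimic glands and 379880 to 640604 in vehicle glands. The glands differed in lobe markers. The summed level of 8 of 8 posterior lobe markers ran from 5806 to 8984 in mimic glands and from 1451 to 16371 in vehicle glands. Vehicle 3 and vehicle 5 were highest at 16371 and 11581, and vehicle 6, vehicle 1 and vehicle 4 were lowest at 1451, 1553 and 2504, with the posterior lobe marker Lhx2 at 0 in vehicle 1. Pax7 was lowest in vehicle 6 and vehicle 1, at 85.1 and 145 normalised counts, and ran from 431 in vehicle 4 to 1924 in mimic 4 in the other 10 glands.

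The let-7 family silences messages by pairing with its seed, bases 2 to 8 of the mature microRNA. The sequence of the injected microRNA, from RefSeq (GRCm38.p6), is shown with the seed in capitals, because the collagen sites are matches to it.
mmu-let-7f-5p: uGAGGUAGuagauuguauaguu
Matches to its complement CTACCTC were searched on the sense strand of the 3′ UTR of 1 transcript per gene (GENCODE M21, GRCm38). They were found in 8 of 42 collagen genes (19.0%) and in 1586 of 15488 tested genes with a 3′ UTR (10.2%). Median 3′ UTR length was 1012.5 bases in the collagen genes and 1149 in all of these. The 8 carriers include both chains of type I collagen, the chain of type III collagen and the alpha 2 chain of type V collagen, all components of interstitial fibrils. The sites are printed in windows of 30 bases with the match in capitals. For Col1a2, Col3a1 and Col5a2 the capitals run on into the A that makes an 8mer site. Coordinates are those of the 7 matched bases.
Col1a2, chr6:4541077-4541083, plus strand: ttccaaaggtttgaaCTACCTCAagacact
Col3a1, chr1:45349150-45349156, plus strand: tcctccctatgttaaCTACCTCAactggtc
Col5a2, chr1:45375102-45375108, minus strand: atttcttagcatgacCTACCTCAtctctgc
Col1a1, chr11:94952405-94952411, plus strand: tgtgttgctgaaagaCTACCTCgttcttgt
Col14a1, chr15:55520459-55520465, plus strand: ccatcactgaggaaaCTACCTCctacttgt
Col24a1, chr3:145551178-145551184, plus strand: tcttagtggtgcacaCTACCTCttttgtgt
Col26a1, chr5:136742835-136742841, minus strand: ttttgcccctgccccCTACCTCccactccc
Col27a1, chr4:63333898-63333904, plus strand: ctggggtgctgtgtgCTACCTCccactgtg
A match is a description of the sequence and shows no pairing in these glands.

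Per kilobase of the longest transcript, type I collagen RNA led the family, through Col1a2 more than Col1a1. Col1a2, the alpha 2 chain of type I collagen, averaged 1426 normalised counts per kilobase over the 12 glands and alone made up 24.95% of the summed per-length collagen level. It stood at the 95.3 percentile of all genes with an annotated length. Col4a1, the alpha 1 chain of type IV collagen, followed with 557, then Col3a1, the chain of type III collagen, with 350 and Col1a1, the alpha 1 chain of type I, with 324. These 4 genes held 46.5% of the summed level and the first 10 held 69.1%. Only 9 of 42 members lay above the median gene. The lowest members were Col28a1, with 7.47 normalised counts per kilobase, and the type VI chain Col6a5, with 3.31. The order at the top depends on the lengths assumed. Median annotated transcripts are 0.428 kilobases for Col1a1, 0.647 for Col4a1 and 2.03 for Col1a2. By these lengths Col4a1 and Col1a1 would stand above Col1a2.

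Fibrillar chains made up 49.6% ± 5.72 of the summed per-length collagen level in mimic glands and 49.3% ± 4.19 in vehicle glands (mean ± SD, n = 6 each). Basement membrane chains held 21.2% ± 2.22 in mimic glands and 21.2% ± 2.38 in vehicle glands. The other chains held 29.3% ± 4.07 in mimic glands and 29.5% ± 4.46 in vehicle glands. For each class the difference between the group means was smaller than the SD of either group. Fibril-associated chains, which sit on the surface of fibrils, held 7.41% over the 12 glands with 9 genes. Type VI chains, which form beaded filaments, held 5.99% with 6 genes. Col15a1 and Col18a1, the multiplexins found next to basement membranes, held 5.62%, and counting both with type IV collagen gave a basement membrane share of 26.8%. With the median in place of the longest transcript the basement membrane share was 33.8% and that of the other chains 17.4%, so the split between these classes depends on the transcript lengths assumed. All 42 genes together summed to 5821 ± 998 normalised counts per kilobase in glands given the mimic and 5606 ± 780 in glands given vehicle. Mimic 1 alone had 7614, and without it the mimic mean was 5462 ± 528 (n = 5), below that of vehicle.

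**Figure D1:**
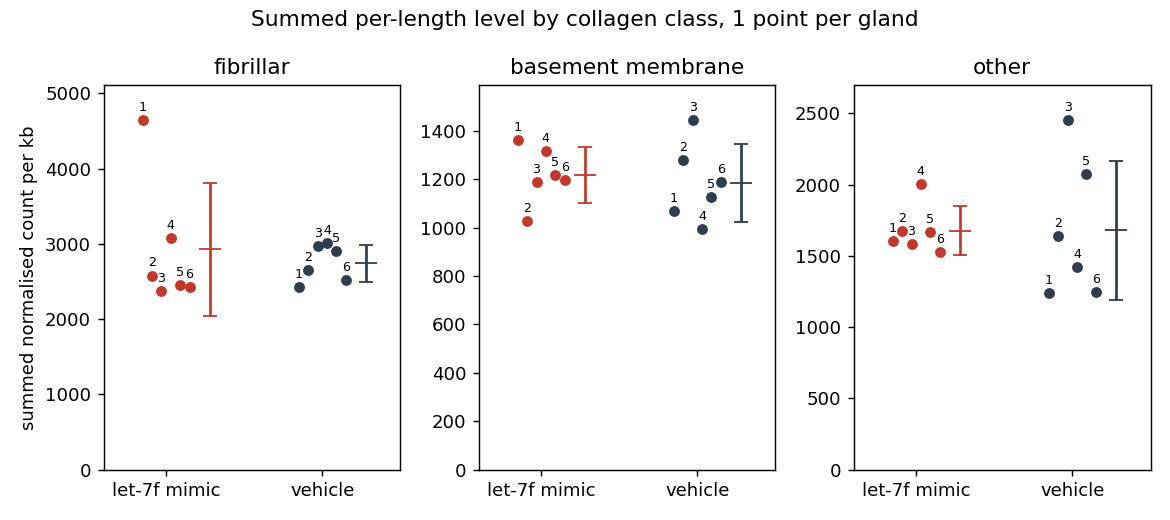
Summed normalised counts per kilobase of the fibrillar, basement membrane and other collagen genes in each gland, let-7f mimic left and vehicle right of each panel, with replicate numbers over the points and mean ± SD beside them. Mimic 1 stands alone in the fibrillar panel at 4646, and vehicle 3 is highest in the panel of the other collagens at 2453.

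Among the fibrillar chains, Col1a2 had 6481 to 10921 normalised counts in mimic glands with a median of 6680, and 6631 to 10055 in vehicle glands with a median of 7298. Col3a1 had 1703 to 2525 in mimic glands (median 1932) and 1369 to 2282 in vehicle glands (median 1758). Col1a1 had 806 to 7746 in mimic glands (median 1380) and 756 to 2464 in vehicle glands (median 1234). The groups overlapped for all 3 genes, and Col1a1 was high in mimic 1, whose 7746 counts lay far above the next highest gland, vehicle 5. In mimic 1 the transthyretin gene Ttr was at 817 normalised counts, against 43.4 to 114 in the other 11 glands, and Slc6a20a was at 119, against 8.90 to 49.5. Both genes were chosen after their values were seen, and their part in the level of Col1a1 was not tested. The other 8 fibrillar chains ran from Col27a1, with 228 normalised counts per kilobase, and Col11a1, with 212, down to Col5a3, with 15.2.

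Of the 3 classes, type IV chains had the lowest median variation between glands. Col4a1 had 3002 to 4248 normalised counts in mimic glands (median 3642) and 3109 to 4539 in vehicle glands (median 3678). Col4a2, its partner in the common type IV heterotrimer, had 1042 to 2057 in mimic glands (median 1699) and 1168 to 1778 in vehicle glands (median 1502). Col4a3, a chain of the specialised network known from the kidney glomerulus, had 1100 to 1413 in mimic glands (median 1260) and 1015 to 1376 in vehicle glands (median 1145). All 3 overlapped between the groups. The median coefficient of variation over the 12 glands was 16.8% for the 6 type IV chains, 30.3% for the fibrillar chains and 28.01% for the other chains, and 13.8% for all tested genes.

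Per kilobase of the longest transcript, the class of other chains was led by Col13a1. This collagen spans the cell membrane and is known from the neuromuscular junction. Col13a1 had 658 to 1076 normalised counts in mimic glands (median 689) and 180 to 2177 in vehicle glands (median 442). Of the mimic glands 5 lay between 658 and 739 with mimic 4 above them, and vehicle glands lay below, among and above the mimic glands. Col6a1, a chain of type VI collagen, had 722 to 1003 in mimic glands (median 799) and 678 to 939 in vehicle glands (median 767). Col15a1 had 491 to 1170 in mimic glands (median 816) and 519 to 1247 in vehicle glands (median 852).

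**Figure D2:**
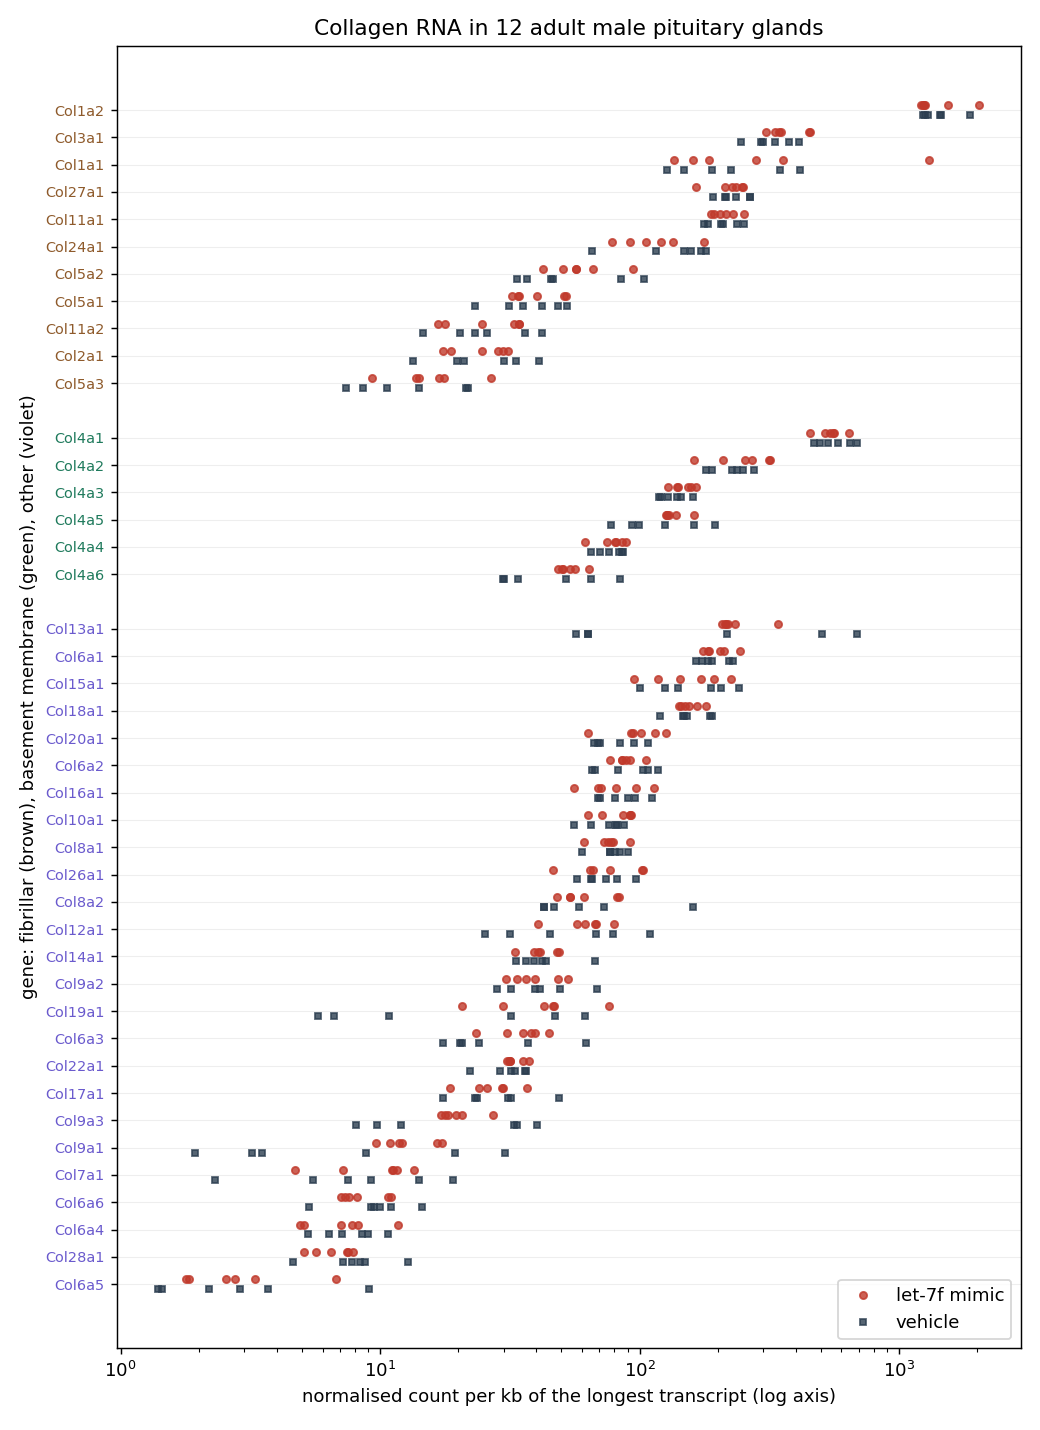
Normalised counts per kilobase of the longest transcript (log axis) for the 42 collagen genes by class, 1 point per gland, let-7f mimic as circles above vehicle as squares. The groups overlap for every gene, and Col19a1, Col9a1 and Col13a1 have the widest spread among vehicle glands.

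The 2 chains of a heterotrimer were seldom at equal RNA level. Col1a1 stood at 0.213 ± 0.155 of the per-length level of Col1a2 over the 12 glands (mean ± SD), although type I collagen is mostly built from a pair of alpha 1 chains and a single alpha 2 chain. The ratio ran from 0.108 to 0.640 in mimic glands and from 0.101 to 0.335 in vehicle glands, so that Col1a2 was higher in every library. Col4a1 stood at 2.37 ± 0.403 times Col4a2, Col4a3 at 1.83 ± 0.285 times Col4a4, and Col4a5 at 2.59 ± 0.342 times Col4a6. Col6a1 stood at 2.23 ± 0.255 times Col6a2. Each of these 4 ratios was above 1 in all 12 glands. Col5a1 stood at 0.704 ± 0.160 of Col5a2 and Col8a1 at 1.32 ± 0.416 times Col8a2. Such ratios depend on the transcript lengths used and on how shared reads were divided, and they are descriptions with no test.

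The median collagen gene varied more between glands than the median of all tested genes, with no matching for level. Some members, among them Col4a1, varied less than that median. The median coefficient of variation of the 42 members was 26.8%, and 4 members had a highest gland over 10 times the lowest. These were Col9a1 with 15.7-fold, Col19a1 with 13.2-fold, Col13a1 with 12.1-fold and Col1a1 with 10.3-fold. Col9a1 and Col19a1 are fibril-associated chains, the first known from cartilage and the second from brain interneurons and muscle. Vehicle 3 was the highest gland for 14 of 42 members, and vehicle 1, vehicle 4 or vehicle 6 was the lowest for 29. These counts were not set against those of all genes. Vehicle 3 was also highest in most of the marker sums, and the lowest gland of a list was vehicle 1, vehicle 6, vehicle 2 or mimic 6. The sum of 8 of 9 fibroblast markers, with Dcn and Gsn the largest terms, was 9345 to 10983 in mimic glands and 7926 to 15824 in vehicle glands. Vehicle 3 was highest and vehicle 1 lowest in this sum. Dcn, Gsn, Pdgfra, Lum and Pi16 were each highest in vehicle 3. Loxl1 was highest in vehicle 6 (1159), Mfap5 in vehicle 4 (129) and Clec3b in mimic 5 (19.2). Markers of meninges and nerve sheath (6 of 6 measured) summed to 2687 to 3468 in mimic glands and 2614 to 5472 in vehicle glands, again highest in vehicle 3. Pericyte and smooth muscle markers (8 of 8) summed to 6905 to 8756 in mimic glands and 7353 to 9750 in vehicle glands, and endothelial markers (8 of 8) to 9296 to 10489 in mimic glands and 8199 to 11542 in vehicle glands. Stem and folliculostellate cell markers (6 of 6) summed to 3363 to 4142 in mimic glands and 3362 to 4285 in vehicle glands. Melanotroph markers (5 of 5), mostly Pomc, summed to 139504 to 647412 in mimic glands and 52089 to 434382 in vehicle glands. Of 11 cartilage and bone markers 7 were measured, and they summed to 883 to 1508 in mimic glands and 882 to 1534 in vehicle glands. The part of these cell types in the spread of the collagens was not tested.

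The mimic comparison asks whether let-7f given to the zygote leaves a trace in the collagen RNA of the adult gland. No collagen gene passed the threshold in either direction. At an adjusted p under 0.05, limma-trend on log2 levels (normalised count plus 1, p-values adjusted by Benjamini and Hochberg's method over 18390 genes) called 0 of 42 members, against 0% of all genes tested. The smallest adjusted p of a member was 0.976. At an unadjusted p under 0.05 it gave 0 of 42 members and 879 genes in all (4.78%). The quasi-likelihood test of edgeR on the recovered reads called 0 members, with 0 at an unadjusted p under 0.05 (4.72% of all genes). DESeq2 also called 0 members and 10 of 14812 genes with an adjusted p (0.0675%), with 0 members at an unadjusted p under 0.05 (5.04% of all genes), and gave no adjusted p for 4 members. The groups did not overlap for 0 of 42 members and for 22 of all genes (0.12%). The median log2 fold change of the members was 0.03, with 27 above 0 and 15 below, and that of all genes tested was -0.0005. The sign of the members' median turned with Pax7 as a covariate, where it was -0.07.

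The precision of this comparison differed by class. Changes above 2-fold, up or down, fell outside the 95% confidence interval for 37 of 42 members (88.1%), against 93.55% of all genes. This held for 6 of 6 type IV chains, 10 of 11 fibrillar chains and 21 of 25 others. Log2 fold changes had a median standard error of 0.207 among the members and 0.113 among all genes. For Col1a2 the interval of the log2 fold change ran from -0.30 to 0.27, for Col4a1 from -0.27 to 0.16 and for Col3a1 from -0.08 to 0.47. For Col1a1 it was much wider, from -0.65 to 1.38.

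**Figure D3:**
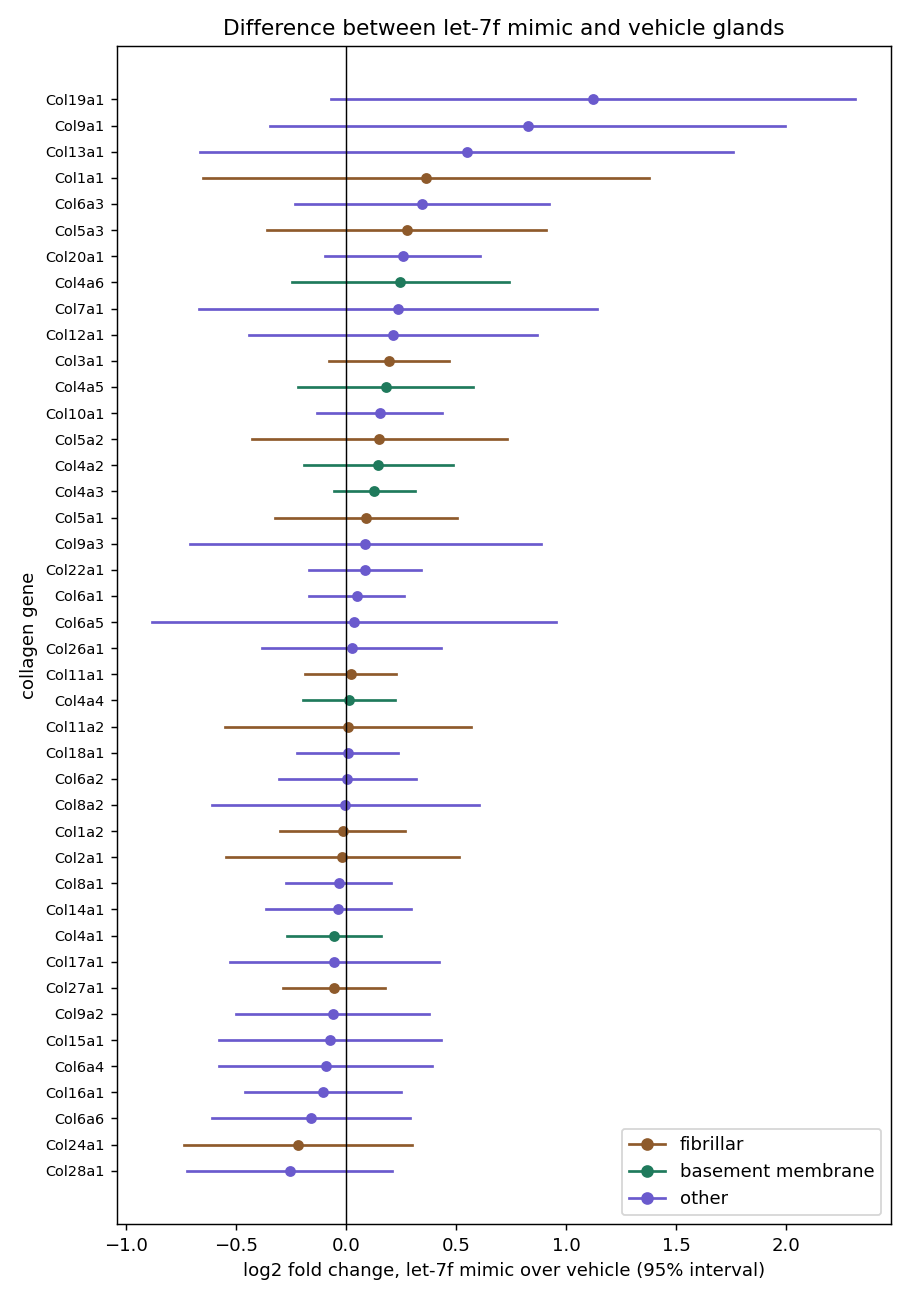
Log2 fold change of let-7f mimic over vehicle glands for the 42 collagen genes, points with 95% confidence intervals from limma-trend, coloured by class. Every interval includes 0, and those of Col19a1, Col9a1 and Col13a1 reach farthest to the right.

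The members of smallest p did not pass either. Col19a1 had 113 to 414 normalised counts in mimic glands (median 242) and 31.4 to 337 in vehicle glands (median 116). Its log2 fold change was 1.12 (limma SE 0.56, adjusted p 0.976, unadjusted p 0.0629). With edgeR it was 0.66 and with DESeq2 0.67, and it ran from 0.79 to 1.47 in limma as single libraries were left out. The lowest 3 glands were vehicle 6, vehicle 1 and vehicle 4, and the other 3 vehicle glands lay inside the range of the mimic glands. Without vehicle 6 and vehicle 1, the 2 glands of lowest Pax7, the log2 fold change was 0.35, and with Pax7 as a covariate it was 0.08. The fibril-associated chain Col20a1 had 316 to 636 normalised counts in mimic glands (median 491) and 334 to 542 in vehicle glands (median 387), with a log2 fold change of 0.26 (limma SE 0.16, adjusted p 0.976). Col3a1 had a log2 fold change of 0.20 (limma SE 0.13, adjusted p 0.976). On the other side, Col28a1, a chain with von Willebrand factor type A domains, had 21.4 to 33.4 normalised counts in mimic glands (median 29.5) and 19.6 to 54.3 in vehicle glands (median 34.3). Its log2 fold change was -0.26 (limma SE 0.22, adjusted p 0.976). The fibrillar chain Col24a1 had 558 to 1265 in mimic glands (median 812) and 468 to 1285 in vehicle glands (median 1091), with a log2 fold change of -0.22 (limma SE 0.24, adjusted p 0.976). The type VI chain Col6a6 had 62.1 to 96.6 in mimic glands (median 69.2) and 46.5 to 128 in vehicle glands (median 85.4), with a log2 fold change of -0.16 (limma SE 0.21, adjusted p 0.976).

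The 8 genes with a seed match split evenly, 4 above 0 and 4 below, with a median log2 fold change of 0.0048. Without mimic 1 there were 3 above 0 and 5 below, with a median of -0.07. Over all 12 libraries the 34 members without a match had a median of 0.04, 23 above 0 and 11 below. No value without mimic 1 is given for them, so the carriers' -0.07 is not to be set against this 0.04. The median of all collagen genes, carriers included, was 0.031 with mimic 1 and 0.016 without it. Col1a1 and Col24a1 had the largest differences among the carriers. For Col1a1 the log2 fold change was 0.36 (limma SE 0.47, adjusted p 0.976), and without mimic 1 it was -0.08. Count models over all 12 libraries gave 0.73 with edgeR and 0.74 with DESeq2. The 8mer carriers Col1a2, Col3a1 and Col5a2 had log2 fold changes of -0.02, 0.20 and 0.15. The sites of Col14a1, Col26a1 and Col27a1 went with log2 fold changes of -0.04, 0.02 and -0.06.

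Pax7 was then used as a scale for the share of intermediate lobe. The libraries fell into 2 clusters of Pax7 level. The gap above vehicle 6 and vehicle 1 was 1.56 on the log2 scale, out of a range of 4.48, so slopes were fitted over the other 10 glands, with the group as a covariate. In these 10 glands 1 of the 42 collagen genes, Col19a1, passed the threshold for a change with Pax7. The count was 3 without vehicle 3, and 4 over all 12 glands, or 7 there without the group in the fit, and Col19a1 was among the genes called each time. It rose by 1.18 log2 units per log2 unit of Pax7 (limma SE 0.09, adjusted p 0.000356 over 18389 genes). The call rate was 1 of 42 members (2.38%) against 0.517% of all genes, and 0.473% were called higher. Within the 10 glands Col19a1 ran from 58.8 normalised counts in vehicle 4, the lowest in Pax7, to 414 in mimic 4, the highest in Pax7. Vehicle 1 and vehicle 6, which the slope did not use, had 36.1 and 31.4, the lowest values of all.

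Over the 10 glands Pearson's r of log2 Col19a1 and log2 Pax7 was 0.982 (two-sided permutation p 1e-05, the smallest that 100000 resamples can give) and Spearman's rho 0.891 (permutation p 0.00144). Without vehicle 4 and mimic 1, the 2 glands farthest from the median of Pax7, r was 0.977 (n = 8), and within the 6 mimic glands it was 0.995. The slope passed the threshold within the mimic glands as well, at 1.09 (limma adjusted p 0.0295, with 0.0381% of all genes called). It passed when the posterior lobe markers were added to the fit, at 1.12 (limma adjusted p 0.00619, with 0.19% of all genes called). The permutation p-values are single tests among the 42 correlations computed, and the limma value is the one adjusted over all genes.

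No other collagen gene passed over the 10 glands. Those of smallest p on the positive side were Col15a1, with a slope of 0.48 (limma SE 0.16, adjusted p 0.218), and Col13a1, with 0.90 (limma SE 0.31, adjusted p 0.223). On the negative side were Col8a2, a short-chain collagen of the corneal Descemet membrane, with -0.52 (limma SE 0.19, adjusted p 0.239), Col1a2 with -0.27 (limma SE 0.10, adjusted p 0.243) and the fibril-associated chain Col14a1 with -0.25 (limma SE 0.11, adjusted p 0.286). Their Pearson correlations over the 10 glands were not kept when the 2 glands farthest from the median of Pax7 were left out. Without vehicle 4 and mimic 1, r was 0.222 for Col15a1, 0.161 for Col13a1, 0.0486 for Col8a2, 0.262 for Col1a2 and 0.0552 for Col14a1, against 0.607, 0.626, -0.658, -0.648 and -0.648 over the 10 glands. Spearman's rho over the 10 glands was 0.661 for Col13a1 (two-sided permutation p 0.0440) and 0.442 for Col15a1 (permutation p 0.203). Within the 6 mimic glands r was 0.763 for Col13a1 and 0.574 for Col15a1. For Col8a2, Col1a2 and Col14a1 rho over the 10 glands was -0.321, -0.503 and -0.418 (permutation p 0.368, 0.145 and 0.233). Their r within the mimic glands was -0.261, -0.419 and -0.381. The slope of Col13a1 passed when vehicle 3 was left out, at 0.96 (limma adjusted p 0.0415). Col8a2 had 209 to 363 normalised counts in mimic glands (median 249) and 185 to 699 in vehicle glands (median 229), with vehicle 4 highest. Col14a1 had 214 to 316 in mimic glands (median 264) and 216 to 435 in vehicle glands (median 263), also with vehicle 4 highest. Over all members r was above 0 for 29 of 42, with a median of 0.161. At an unadjusted p under 0.05 the slope gave 10 of 42 members (23.8%), against 16.1% of all genes. Of these members 7 were higher, against 8.63% of all genes, and 3 were lower, against 7.46%.

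Because Pax7 and the posterior lobe markers moved together in these glands (r 0.590 over the 10), the same fit was made on the mean log2 level of the 8 posterior lobe markers. This fit was added after the data had been seen. Over the 10 glands other collagens passed here than on Pax7. Col13a1, Col4a6, Col4a5 and Col9a1 rose with the posterior lobe markers, 4 of 42 members (9.52%), against 1.06% of all genes and 0.93% called higher. Without vehicle 4, which stands apart from the other 9 glands in these markers, only Col13a1 passed, against 0.169% of all genes. At an unadjusted p under 0.05 there were 17 of 42 members (40.5%), against 10.4% of all genes, and 16 of them were higher, against 6.21%. The 2 sets overlapped in other settings. Over all 12 glands the Pax7 slope called Col13a1 and Col4a5 too, and without the group in the fit also Col4a6 and Col9a1. The posterior lobe slope over all 12 also called Col19a1. With vehicle 3 left out of the 10, the Pax7 slope also called Col13a1 and Col4a6, and the posterior lobe slope Col19a1. The marker sums of fibroblasts, pericytes and smooth muscle, endothelium, stem and folliculostellate cells, and meninges and nerve sheath were also highest in vehicle 3, the gland with the most posterior lobe markers, and their part in these slopes was not tested.

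Col13a1 had 2177 and 1593 normalised counts in vehicle 3 and vehicle 5, the glands richest in posterior lobe markers, and 1076 in mimic 4. It had 658 to 739 in the other 5 mimic glands and 685 in vehicle 2, and 180 to 200 in vehicle 1, vehicle 6 and vehicle 4. The 3 highest glands and the 3 lowest were thus also the 3 highest and 3 lowest in posterior lobe markers. Its slope was 1.63 (limma SE 0.09, adjusted p 1.725e-05 over 18382 genes), and 1.35 (limma adjusted p 0.00594) without vehicle 4. With Pax7 in the same fit the posterior lobe slope was 1.54 (limma adjusted p 0.000373) and the Pax7 slope 0.12 (limma adjusted p 0.531). For Col19a1 that joint fit gave a Pax7 slope of 1.12 and a posterior lobe slope of 0.12 (limma adjusted p 0.807).

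Col4a5 and Col4a6, neighbouring genes of the X chromosome whose chains assemble together in some basement membranes, rose together. Col4a6 had 322 to 424 normalised counts in mimic glands (median 348) and 198 to 560 in vehicle glands (median 285). Its slope was 0.68 (limma SE 0.08, adjusted p 0.00158), and 0.57 (limma adjusted p 0.164) without vehicle 4. Col4a5 had 830 to 1061 in mimic glands (median 845) and 507 to 1272 in vehicle glands (median 733), with a slope of 0.50 (limma SE 0.07, adjusted p 0.00235), and of 0.53 (limma adjusted p 0.116) without vehicle 4. Col9a1 had 36.8 to 66.3 in mimic glands (median 45.8) and 7.40 to 116 in vehicle glands (median 23.7). Its slope was 1.31 (limma SE 0.23, adjusted p 0.0183), and 1.05 (limma adjusted p 0.421) without vehicle 4. With Pax7 in the same fit, which called 0.642% of all genes, Col4a5 and Col4a6 passed and Col9a1 did not (limma adjusted p 0.0592). That fit also called Col7a1, the anchoring fibril collagen of skin, lower, as it did 0.0707% of all genes, with a posterior lobe slope of -1.57 (limma adjusted p 0.0218). Vehicle 3 was the lowest gland for Col7a1, at 21.3 normalised counts, and vehicle 6 the highest, at 177.

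**Figure D4:**
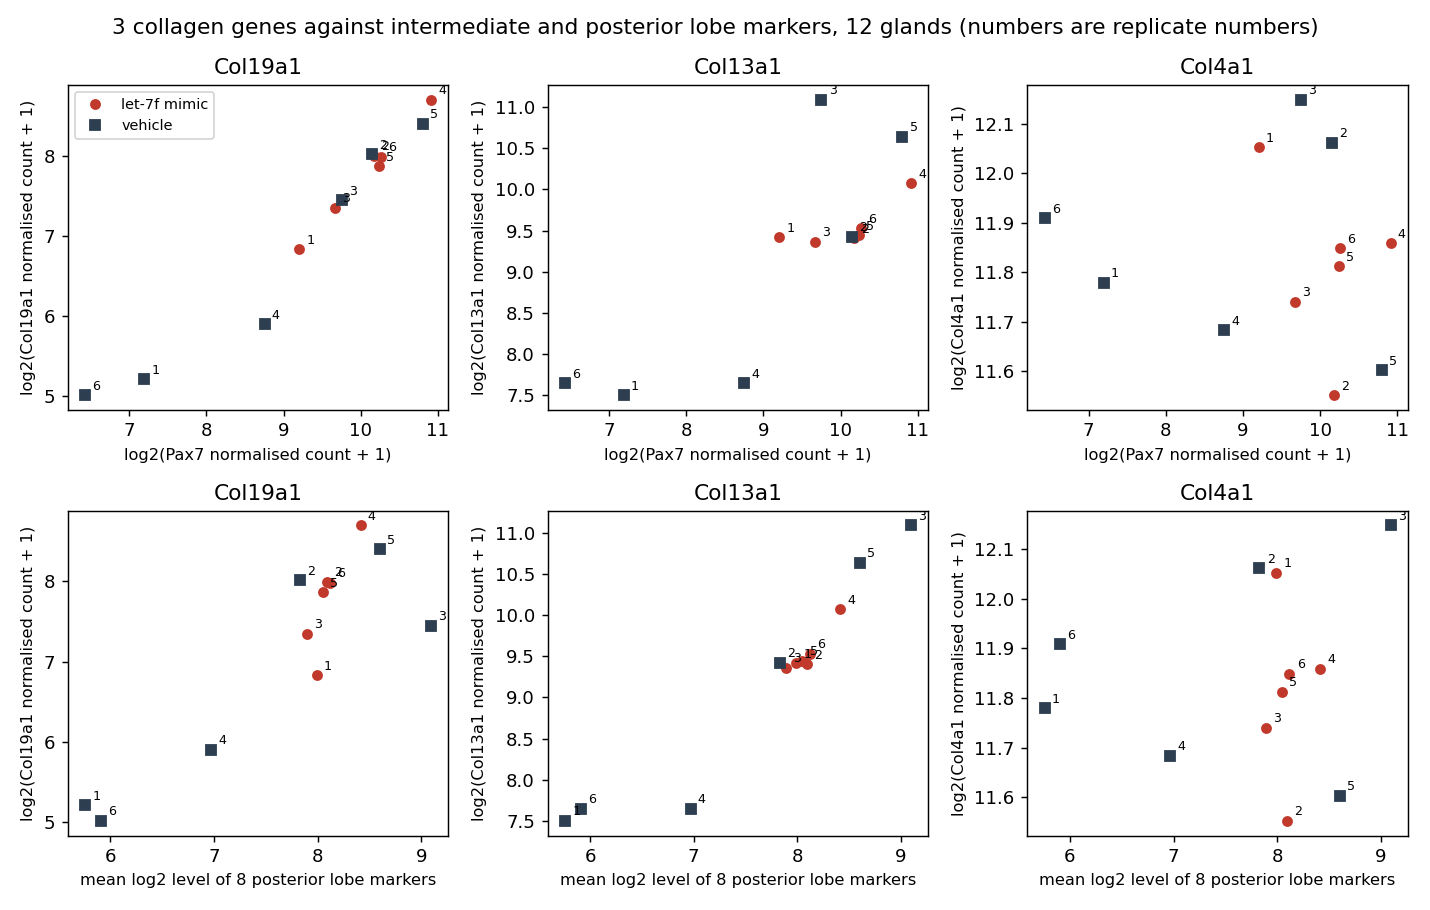
Log2(normalised count + 1) of Col19a1, Col13a1 and Col4a1 against log2 Pax7 (top) and the mean log2 level of 8 posterior lobe markers (bottom) in 12 glands, let-7f mimic as circles and vehicle as squares, with replicate numbers. With both scales in 1 fit over 10 glands, Col19a1 rose with Pax7 and Col13a1 with the posterior lobe markers. Over all 12 glands, as plotted, each of these genes was called on both scales. Col4a1 spans only 1.51-fold between glands.

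**Figure D5:**
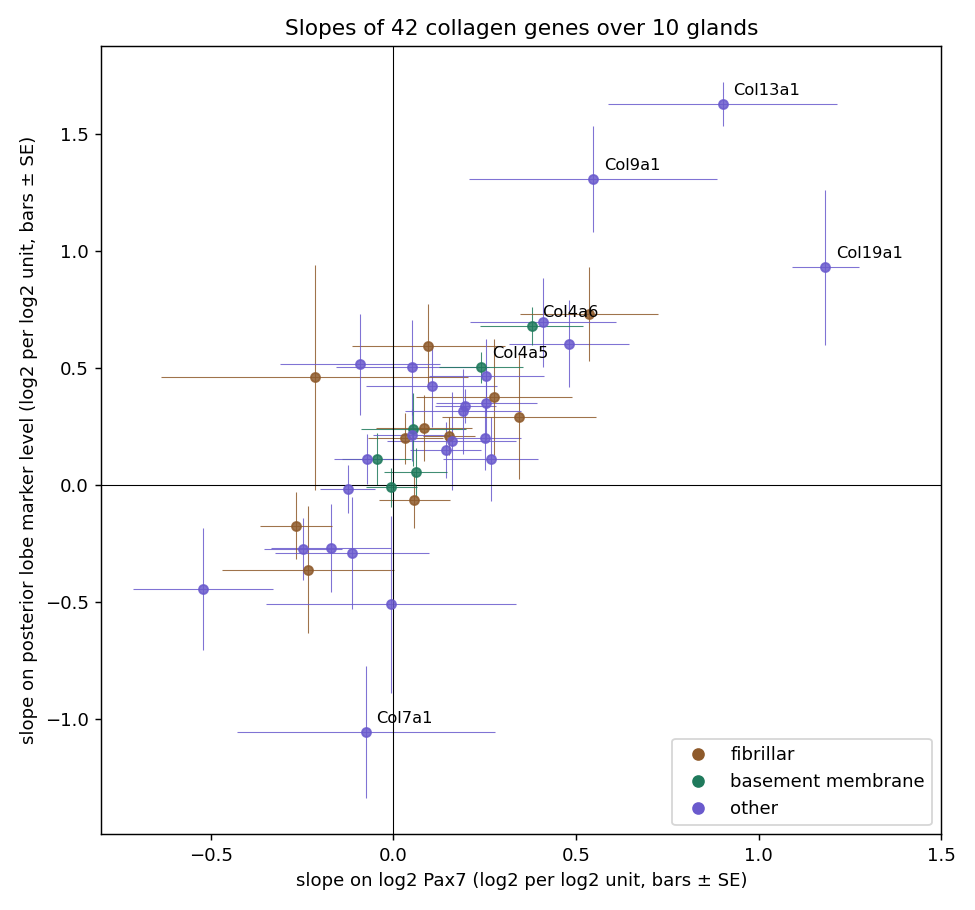
Slope on log2 Pax7 (x) against slope on the posterior lobe marker level (y) for each of the 42 collagen genes over 10 glands, in log2 units per log2 unit with bars of 1 SE. Col19a1 is farthest to the right at 1.18 and Col13a1 highest at 1.63, and Col7a1 is lowest.

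Collagen is folded, trimmed, cross-linked, bound and degraded by other proteins, and 5 lists of their genes were read in the same fits. In the mimic comparison no gene of any list passed (0% of all genes called). The medians of the log2 fold changes were 0.03 for 21 genes of synthesis and folding, 0.05 for 13 of 14 genes of propeptide cleavage and cross-linking, -0.05 for 11 receptors, -0.02 for 9 of 10 genes of degradation and 0.02 for 15 basement membrane partners. All genes tested had -0.0005. Lox, the enzyme that oxidises lysines for cross-links, averaged 653 ± 155 normalised counts in glands of the mimic group and 399 ± 240 in those of the vehicle group (SD, n = 6 each). Its log2 fold change of 0.90 failed the threshold (limma SE 0.33, adjusted p 0.976). Loxl1, another lysyl oxidase and of smaller unadjusted p (0.00589, against 0.0171 for Lox), averaged 848 ± 28.9 normalised counts in glands of the mimic group and 1008 ± 113 in those of the vehicle group. Its log2 fold change of -0.24 did not pass either (limma SE 0.07, adjusted p 0.976).

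With Pax7, 2 of 13 genes of cleavage and cross-linking rose and 0 fell, against 0.517% of all genes. These were Lox, with a slope of 0.69 (limma SE 0.07, adjusted p 0.00114), and Adamts3, a protease that removes the amino propeptide of fibrillar procollagen, with 0.65 (limma SE 0.12, adjusted p 0.0375). Among 15 basement membrane partners 2 rose and 0 fell. Agrn, which encodes the heparan sulfate proteoglycan agrin, had a slope of 0.33 (limma SE 0.05, adjusted p 0.0222), and the laminin chain gene Lamb3 one of 2.63 (limma SE 0.42, adjusted p 0.0205). Lamb3 ran from 110 to 3676 normalised counts in mimic glands and from 144 to 2267 in vehicle glands, and at 1187 and 740 it was not low in vehicle 1 and vehicle 6, the glands of lowest Pax7. The type IV collagen chains themselves did not pass on Pax7. No gene of synthesis and folding, of the receptors or of degradation passed. With the posterior lobe markers 1 gene of the 5 lists passed and rose, against 0.93% of all genes called higher. The lists held 21, 13, 11, 9 and 15 tested genes, so a single call is near that share. This was the laminin chain gene Lamb2, with a slope of 0.41 (limma SE 0.07, adjusted p 0.0133). No value without vehicle 4, where 0.169% of all genes were called, is given for Lamb2.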

How the data were processed

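Per the labels' protocols, ribosomal RNA was removed and stranded libraries were made from the total RNA of 12 glands, 6 per group. The tools were Trimmomatic 0.39, kallisto 0.50.1, DESeq2 1.48.2, FastQC 0.12.1 and MultiQC 1.28 and the build GRCm39, per the submitters' processing notes. The authors deposited a signal per gene, normalised read counts. Every value was a whole multiple of 1 step per library (100% within 0.001), so reads were recovered by size factors of 0.817 to 1.17. A row without a gene name (0.0359% to 0.0567% of reads) was left out.

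Limma-trend (limma 3.58.1, R 4.3.3) ran on log2(value + 1) for 18390 of 18497 genes with at least 10 in at least 6 libraries, a filter that all 42 collagen genes passed, and the threshold was a two-sided p under 0.05 after Benjamini-Hochberg adjustment. Fold changes on that scale understate the change of low genes. edgeR 4.0.16 and DESeq2 1.42.0 ran on recovered reads. Fits were also run on simulated counts. Their dispersions came from a model with group and Pax7, so they do not measure the power of the mimic comparison, which was fitted without Pax7. Transcript lengths and 3′ UTRs came from GENCODE M21 by symbol (92.5% matched), a build other than the authors'. How kallisto divided reads between near-identical genes affects their counts.

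Libraries were split at the largest Pax7 gap if it exceeded 1.49, the range of log2 Pax7 divided by 3. Named members were the top 3 per class by level and the 2 seed-match carriers of largest difference. The 3 of smallest p in each direction of the mimic comparison and the Pax7 slope were also named. Of the pathway lists, the genes that passed were named, and Lox and Loxl1 in the mimic comparison. Adamts14 of the same list lay between these 2 there, at a limma unadjusted p of 0.0167. Col4a5, Col4a6, Col9a1 and Col7a1 were named after their values were seen. The members and lists were chosen with earlier results of these data known. Alternatives were other pseudocounts, filters, scalings, covariates, libraries and lengths, and the replicate number as a block.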

Additional observations from a re-analysis of the deposited data

Results flagged for a closer look

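Of 104 group values examined (42 genes, 3 class sums and 7 chain ratios in each of 2 groups), 13 had a gland far from the other 5 of its group. The cut-off gives about 1 in 20, or 5.2, for independent values of normal distribution. These values were untransformed, and the sums and ratios reuse the same genes, so 5.2 is no yardstick for the 13. Col1a1 in mimic 1 was at 7746 normalised counts, against 806 to 2127 in the other mimic glands. In the same gland the fibrillar class summed to 4646 normalised counts per kilobase, against 2379 to 3072, and the ratio of Col1a1 to Col1a2 was 0.640, against 0.108 to 0.288.

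Mimic 4 had the most Pax7 of all glands and the most posterior lobe markers of the mimic glands. It was high in Col13a1 at 1076 normalised counts, against 658 to 739, and in Col4a5 at 1061, against 830 to 905. Its other collagens summed to 2007 normalised counts per kilobase, against 1525 to 1671. Vehicle 4 was high in Col1a2 at 10055 normalised counts, against 6631 to 7776 in the other vehicle glands, in Col8a2 at 699, against 185 to 317, and in Col14a1 at 435, against 216 to 281.

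Col6a5 was high in mimic 5 at 62.6 normalised counts, against 16.6 to 30.7, and in vehicle 2 at 84.4, against 12.9 to 34.3. Col9a3, a fibril-associated chain, was high in mimic 5 at 82.8, against 52.4 to 63.3. The ratio of Col4a3 to Col4a4 was 2.68 in mimic 2, against 1.61 to 1.88 in the other mimic glands. Causes were not tested.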

How the results depend on the processing

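In the mimic comparison 0 collagen genes were called under every alternative run, including each library left out in turn. Their median log2 fold change ran from -0.0032 to 0.0872 as single libraries were left out, and was -0.03 without vehicle 1 and vehicle 6 and -0.07 with posterior lobe markers added as a covariate. Col6a6 changed sign to 0.0453 without those 2 glands, and Col1a1 ran from -0.0766 (without mimic 1) to 0.58 as single libraries were left out, and reached 0.73 with edgeR and 0.74 with DESeq2. Col19a1 was lower with these tools, at 0.66 and 0.67. With a minimum of 50, Col28a1, Col6a5 and Col9a1 were not tested. For the Pax7 slope the count of 1 became 4 over all 12 libraries with group as a covariate (Col19a1, Col13a1, Col4a5, Col9a3), 7 without it, and 1 to 3 as single libraries were left out (3 without vehicle 3, with Col13a1 and Col4a6 added). Over all 12 libraries the slope of Col8a2 turned to 0.0564 and 0.0439 and that of Col14a1 to 0.0417 and 0.0265, with and without group. The posterior lobe count of 4 became 8 over all 12 libraries and 1 to 7 as single libraries were left out (1 without vehicle 4, 7 without mimic 1). Col9a1 did not pass without vehicle 3 or vehicle 5 either (limma adjusted p 0.125 and 0.0583). Basement membrane shares were 26.8%, 33.8% and 25.3%, and those of the other chains 23.75%, 17.4% and 24.7%, with Col15a1 and Col18a1 moved, with median transcript lengths and with no length. The causes were not tested.

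Glands with the same replicate number did not deviate together (r -0.149 to 0.0860, the own number best in 1 of 6). The labels do not say what the numbers mark, and so few correlations cannot exclude a shared factor behind them. With the replicate block the Pax7 count was 0, Col19a1 having a slope of 1.26 (limma adjusted p 0.0688), and the mimic count stayed 0.

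Depth was not varied, and values of the lowest members, such as Col6a5 at 12.9 to 84.4 normalised counts, carry the largest counting error. Each group has 6 glands, litters are not given, and lobe markers differ between glands of 1 group.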
